A study of Mus musculus with 12 samples.

Results

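The major urinary protein (Mup) genes Mup1, Mup2, Mup3, Mup5, Mup7, Mup10, Mup12, Mup17, Mup20 and Mup21 were followed in mouse liver. They were taken by gene symbol and are 10 of the 38087 genes of the count table. Counts of exonic reads per gene came from 12 libraries of total RNA depleted of ribosomal RNA, 6 from mice injected with growth hormone (GH) and 6 from mice injected with phosphate-buffered saline (PBS). All mice were germ-free C57BL/6j males aged 13 to 16 weeks. The GH was recombinant human hormone at 50 µg per mouse, and it is unclear from the labels whether this amount was given at each injection. Both groups were injected under the skin 2 times a day, at ZT 2 and ZT 14 (hours after lights on), over 5 days, and the liver samples are labelled ZT 2. Each library is 1 liver sample, and the labels do not say whether the samples of a group were housed or handled separately.

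Major urinary proteins are small secreted lipocalins, barrel-shaped carriers that bind volatile pheromones in a central pocket. In mice the liver makes most of them, they pass through the kidney into urine, and they act there as scent signals. Their liver transcripts are more abundant in adult males than in females, and the male pulses of GH, glucocorticoids and thyroid hormone are known to raise them. Mup20 encodes darcin, a male pheromone. Human GH also binds the mouse prolactin receptor.

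The 10 genes lie on the minus strand of chromosome 4 in the mm10 assembly, between Mup7 at chr4:60066469-60070475 and Mup21 at chr4:62147932-62150863, and each has 6 coding exons in GENCODE M21. Mup20 (chr4:62050234-62054158), Mup3 (chr4:62083476-62087342) and Mup21 are neighbours at one edge of the cluster. None of the 10 shares exonic bases with another annotated gene on its strand. The coding sequences of Mup1, Mup2, Mup7, Mup10, Mup12 and Mup17 are 98.7 to 99.63% identical to each other. Mup1 and Mup12 differ at 2 of 540 bases. Mup20 is 90.37 to 91.3% identical to those 6 genes, 87.29% to Mup3 and 87.48% to Mup21. Mup3 and Mup21 are closer to each other, at 95.58%.

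The stretch of coding sequence where the 10 genes differ most is printed to show how far each departs from the commonest bases. It is 54 bases long, was chosen as the window without gaps that has the most varying positions, and 32 positions are identical in all 10 genes. The sequences are GENCODE M21 coding sequence from chromosome 4, coding bases 209 to 262 (212 to 265 in Mup20 and Mup21, 221 to 274 in Mup3), and capitals mark bases that differ from the commonest base at that position. Mup2 and Mup12 have the same 54 bases as Mup1, and Mup17 has those of Mup7.
Mup10: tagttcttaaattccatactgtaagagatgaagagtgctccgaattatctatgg
Mup1: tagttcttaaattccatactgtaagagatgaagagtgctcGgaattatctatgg
Mup7: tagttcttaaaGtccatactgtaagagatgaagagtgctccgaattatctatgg
Mup5: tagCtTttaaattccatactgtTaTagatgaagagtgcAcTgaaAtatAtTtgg
Mup20: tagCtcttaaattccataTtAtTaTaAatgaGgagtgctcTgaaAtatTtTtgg
Mup21: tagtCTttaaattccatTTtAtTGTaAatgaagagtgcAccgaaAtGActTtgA
Mup3: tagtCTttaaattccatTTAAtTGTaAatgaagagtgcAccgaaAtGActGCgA
Mup10 has 0 capitals and Mup1 and Mup7 have 1 each, against 9 in Mup5, 11 in Mup20, 15 in Mup21 and 17 in Mup3. A capital is not particular to its gene, and most of those in Mup21 and Mup3 are the same letters in both.

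Over whole transcripts, the share of windows of read length (125 bases) that occur in no other annotated gene was 99.9% for Mup3, 99.8% for Mup21 and 100% for Mup5. It was 66.2% for Mup20, whose remaining windows are all shared with the pseudogene Mup-ps19. It fell to 49.8% for Mup17, 23.2% for Mup12, 18.2% for Mup7, 16.3% for Mup1, 15.1% for Mup10 and 5.85% for Mup2. Mup1 shares 74.6% of its windows with Mup12, and Mup2 shares 64.4% with Mup14. The sources used here do not state how reads that match several genes were counted, so the levels of Mup1, Mup2, Mup7, Mup10, Mup12 and Mup17 are uncertain in size and in direction, and their values stand for the counted reads only.

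**Figure D1:**
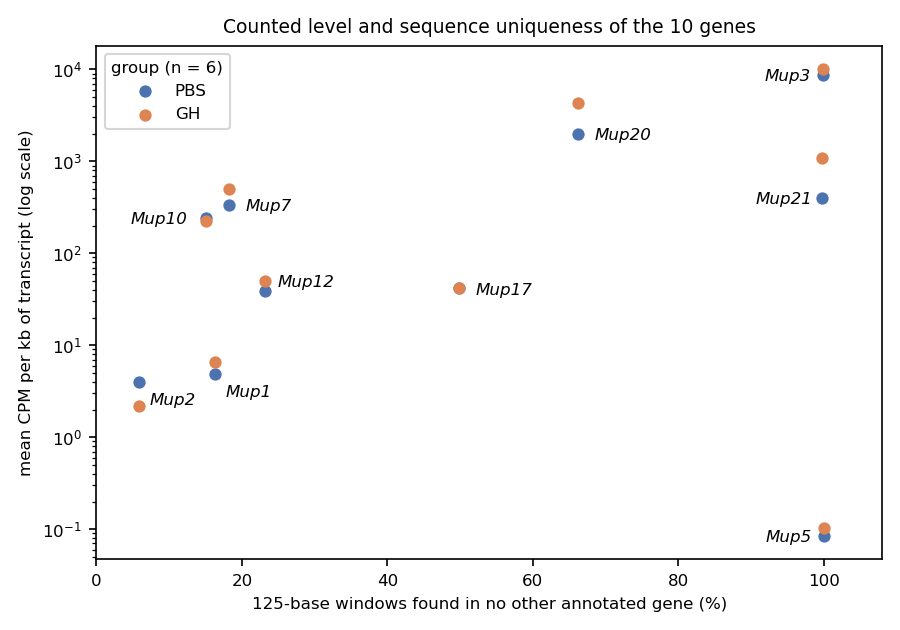
Mean counts-per-million per kilobase of transcript (log axis) of each of the 10 genes in PBS and GH livers (n = 6 each), against the percentage of its 125-base windows found in no other annotated gene. Mup3, Mup20 and Mup21 combine over 60% unique windows with high levels, Mup5 is unique and near 0, and the near-identical genes sit at the left.

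Library totals ran from 19523104 to 23278931 counts, and 14235 genes passed a filter on low counts. Of these, 682 (4.79%) differed between GH and PBS at an adjusted p under 0.05 by edgeR's quasi-likelihood test, 323 higher (2.27%) and 359 lower (2.52%). In a principal component analysis the first component separated the groups, GH replicate 6 stood apart on the second and PBS replicate 5 on the third, and without these libraries 1022 of 14238 genes passed. Results below that change without these libraries are given both ways. Summed hepatocyte markers spanned 114334 to 130036 counts-per-million (CPM) in PBS and 99378 to 124456 in GH, and 0 of 8 passed the test. Of the other liver cell type lists, 1 of 6 stellate cell and fibroblast markers passed (Dcn, log2 fold change -0.38, adjusted p = 0.00296) and 0 of 5 Kupffer cell, 0 of 6 sinusoidal endothelium and 0 of 5 cholangiocyte markers. The summed red blood cell markers spanned 59.0 to 191 CPM in PBS and 174 to 270 in GH, and 1 of 3 passed (Alas2, 1.14, adjusted p = 0.00302). Of 6 pancreatic acinar markers 1 could be tested, it did not pass, and Pnlip and Prss2 had 0 counts. The part of other cell types in the results below was not tested, and fewer cells of a type cannot be told apart from less RNA per cell in whole tissue.

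After GH the transcripts of Mup20 (2.18-fold) and Mup21 (2.75-fold) were more abundant than after PBS. The member with the most counted reads, Mup3, and the near-identical genes did not pass the test. Of the 10 genes 9 could be tested, since Mup5 did not pass the filter. Of those 9, 2 (Mup20 and Mup21) were higher in GH, 0 were lower and 7 did not pass, against 4.79% of all genes passing in either direction. In 0 of the 9 were the 6 GH values clear of the 6 PBS values, a pattern that 3.18% of all genes had. The median log2 fold change of the 9 was 0.35, beside 0.00 for all genes tested. At an unadjusted p under 0.05 there were 3 of 9, the third being Mup2, and 2702 of all 14235.

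Mup20 in PBS had a lowest value of 1060 CPM in replicate 1, a median of 1889 and a highest value of 2748 in replicate 4. In GH it ran from 2565 CPM in replicate 6 through a median of 4072 to 4952 in replicate 5. All GH libraries except replicate 6 lay above the whole PBS range. The log2 fold change was 1.13 ± 0.25 (SE, 6 libraries a group), a 2.18-fold difference with adjusted p = 0.0236. With no filter on low counts Mup20 did not pass (adjusted p = 0.0602). Leaving out PBS replicate 5 (adjusted p = 0.0501) or GH replicate 2 (0.0530) ended the call, over a range of 0.0137 to 0.0530 for the 12 fits with 1 library left out, and without both GH replicate 6 and PBS replicate 5 it held (1.19, adjusted p = 0.0378).

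Mup21, the closest relative of Mup3 among the 10, had 104 CPM in PBS replicate 1, a median of 248 and 491 in PBS replicate 4. In GH it had 440 CPM in replicate 6, a median of 794 and 899 in replicate 3. The 2 ranges overlapped only through GH replicate 6 and PBS replicate 4. The log2 fold change was 1.46 ± 0.33 (SE), a 2.75-fold difference with adjusted p = 0.0323, or 0.0618 with no filter on low counts. The direction held in all 12 fits with 1 library left out (1.29 to 1.72), but the adjusted p exceeded 0.05 in 9 of them, rising to 0.0709 without PBS replicate 6, and was 0.0503 without GH replicate 6 and PBS replicate 5. Those 9 left out PBS replicate 2 (adjusted p = 0.0585), 3 (0.0572), 5 (0.0617) or 6, or GH replicate 1 (0.0695), 2 (0.0685), 3 (0.0681), 4 (0.0626) or 5 (0.0537).

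**Figure D2:**
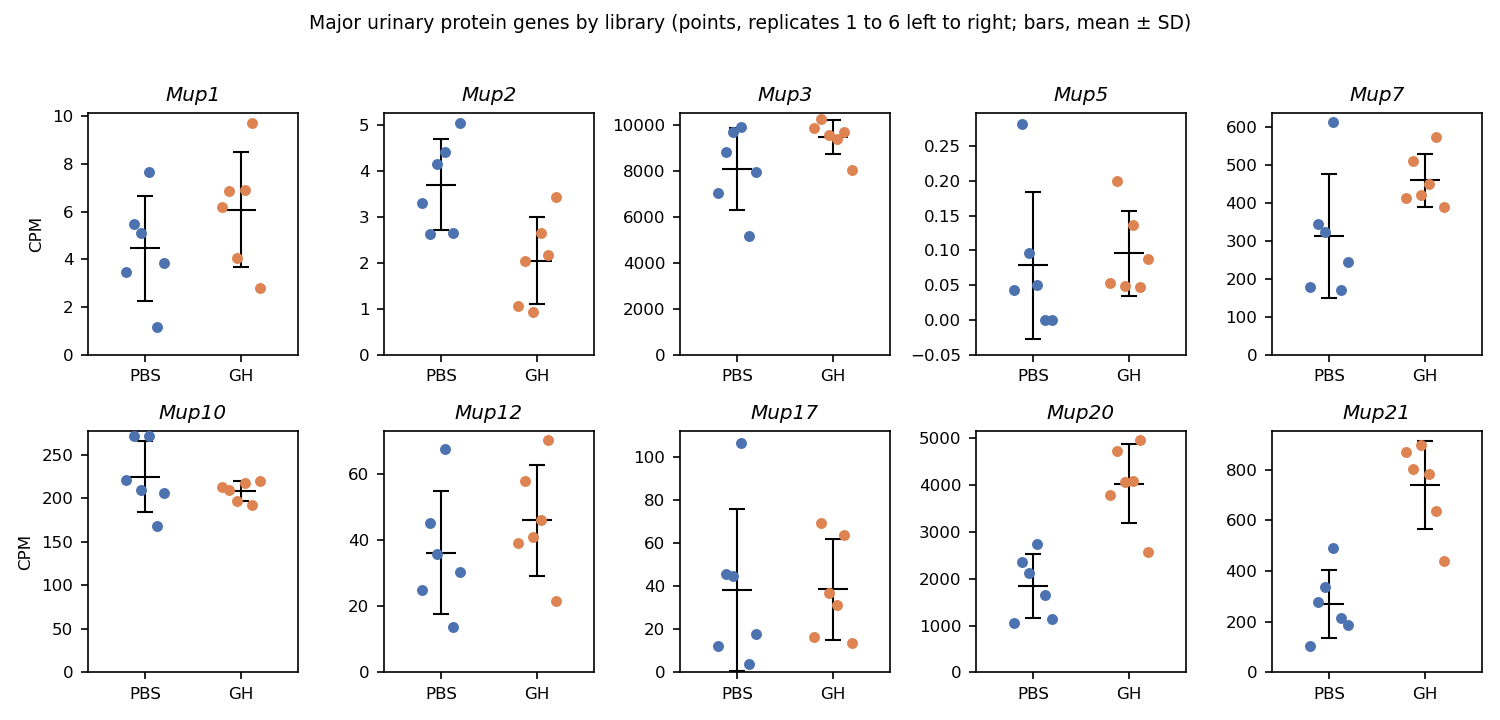
Counts-per-million of each of the 10 genes in each library, with points for replicates 1 to 6 from left to right and bars for the mean ± SD of PBS and GH (n = 6 each), each panel on its own linear axis. In the Mup20 and Mup21 panels 5 of 6 GH points lie above every PBS point, and in the other panels the groups intermix more.

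Mup3 ran from 5186 CPM in PBS replicate 5 through a median of 8406 to 9916 in PBS replicate 4. In GH the lowest value was 8059 CPM in replicate 6, the median 9656 and the highest 10271 in replicate 2. The GH values lay mostly inside the upper part of the PBS range, with 1 of 6 above it, and they were closer together, with a coefficient of variation of 8.00% against 22.1% in PBS. The log2 fold change of 0.23 ± 0.13 (SE) did not pass the test (adjusted p = 0.368).

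Mup2, which has the fewest unique windows, was counted at 2.63 to 5.04 CPM in PBS with a median of 3.72. In GH it was counted at 0.925 to 3.43 CPM with a median of 2.11, and all 6 GH values were below the PBS mean of 3.70. The ranges overlapped, and the log2 fold change was -0.84 ± 0.28 (SE) with adjusted p = 0.109. It passed the threshold without GH replicate 6 (-1.05, adjusted p = 0.0319), without that library and PBS replicate 5 (-1.14, adjusted p = 0.0180) and by DESeq2 (-0.85, adjusted p = 0.0397), which called 7.68% of the genes it tested.

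Mup7 had 170 to 612 CPM in PBS (median 283) and 388 to 574 in GH (median 435). Its 6 GH values were above the PBS mean of 312 CPM, yet 0 of 6 exceeded PBS replicate 4, and the log2 fold change of 0.56 ± 0.29 (SE) did not pass (adjusted p = 0.334). Without PBS replicate 4 it was 0.87 with adjusted p = 0.0284. Mup10 had 168 to 272 CPM in PBS, with all GH values inside that range at 192 to 220, and a log2 fold change of -0.11 ± 0.10 (SE, adjusted p = 0.610).

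Mup12, Mup17 and Mup1 varied widely within each group. Mup12 spanned 13.8 to 67.5 CPM in PBS and 21.5 to 70.3 in GH, and its log2 fold change was 0.35 ± 0.37 (SE, adjusted p = 0.682). Mup17 spanned 3.72 to 107 CPM in PBS and 13.8 to 69.5 in GH, a highest value 28.7 times the lowest within PBS, and its log2 fold change of 0.01 ± 0.72 (SE, adjusted p = 0.997) was negative in 5 of 12 fits that each omitted 1 library, down to -0.24. Mup1 spanned 1.16 to 7.68 CPM in PBS and 2.81 to 9.70 in GH (0.45 ± 0.38, SE, adjusted p = 0.585). Mup5, which in mice is known from salivary glands, had 22 counts in all 12 libraries together, with 0 to 6 per library. Its mean was 0.0786 CPM in PBS and 0.0954 in GH, and PBS replicates 5 and 6 had 0 counts, which allows up to 3 counts in each for counting error alone.

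**Figure D3:**
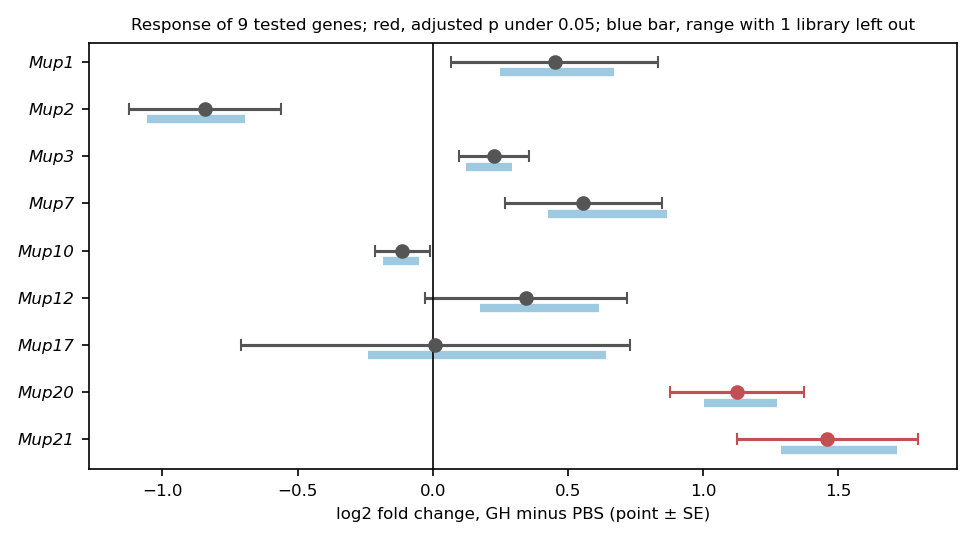
Log2 fold change of GH over PBS for the 9 tested genes (points ± SE from edgeR, n = 6 a group, red where the adjusted p is under 0.05), with the range over 12 fits that leave out 1 library each as blue bars. Mup20 (1.13) and Mup21 (1.46) are red, Mup2 (-0.84) lies left of 0, and the bar of Mup17 crosses 0.

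The tested genes tended to share their extreme libraries. PBS replicate 4 had the highest PBS value for 8 of 9 genes, and PBS replicate 5 had the lowest for 6. GH replicate 6 had the lowest GH value for 7 of 9 and GH replicate 5 the highest for 4. Mup2 was highest in replicate 6 of both groups, and Mup10 was also highest in GH replicate 6. After the mean of its own group was subtracted, Pearson's r of log2 CPM over the 12 libraries, given as a description, was 0.95 between Mup1 and Mup12 (Spearman's rho 0.93), 0.95 between Mup12 and Mup17 (rho 0.97) and 0.90 between Mup3 and Mup17 (rho 0.81). For Mup20, Mup21 and Mup3 the order depended on the measure. By r the closest pair was Mup20 and Mup21 (0.86), above Mup3 with Mup21 (0.63) and with Mup20 (0.58). By rho Mup20 and Mup21 had 0.71, below Mup3 with Mup20 (0.83) and with Mup21 (0.78). Mup20 also had r of 0.79 and rho of 0.95 with Mup7, and Mup7 had r of 0.91 and rho of 0.92 with Mup17. Mup2 had r of -0.21 to 0.22 and rho of -0.36 to 0.17 with the other genes. Pairs such as Mup1 and Mup12 share most of their sequence as well as their libraries.

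**Figure D4:**
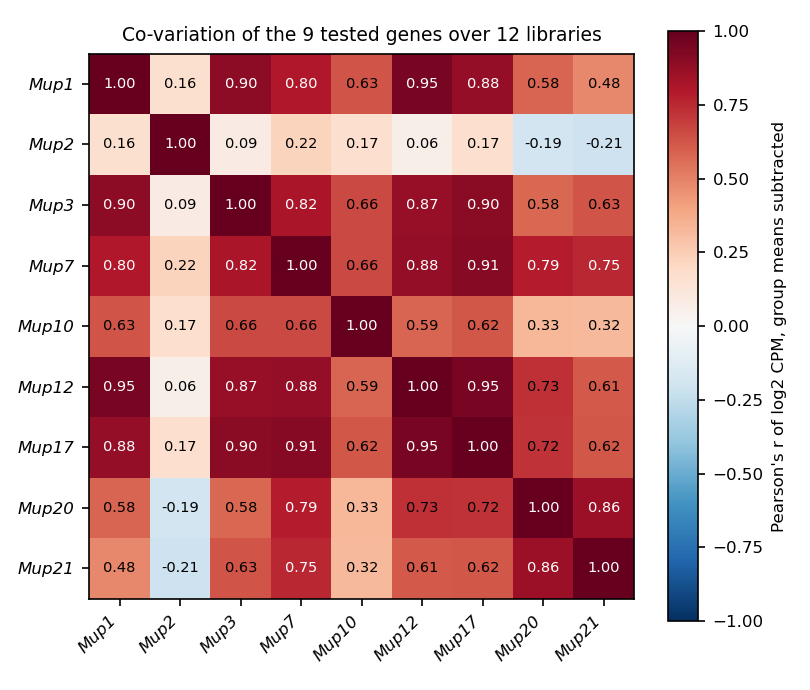
Pearson's r between the log2 CPM of each pair of the 9 tested genes over 12 libraries, after subtraction of each group's mean (red positive, blue negative). Mup2 is the pale row, with r between -0.21 and 0.22, and Mup20 with Mup21 reaches 0.86.

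Per kilobase of transcript, the order of mean levels in PBS was Mup3 (8644 CPM per kb), Mup20 (1989), Mup21 (397), Mup7 (336), Mup10 (242), Mup17 (41.5), Mup12 (39.2), Mup1 (4.81), Mup2 (3.99) and Mup5 (0.0850). The library ranges of Mup21 and Mup7, Mup7 and Mup10, Mup17 and Mup12, and Mup1 and Mup2 overlapped. Compared within each library, the first gene was higher in 5, 5, 3 and 4 of 6, so no pair kept its order throughout. In GH the order was Mup3 (10117 CPM per kb), Mup20 (4341), Mup21 (1092), Mup7 (495), Mup10 (224), Mup12 (49.7), Mup17 (41.7), Mup1 (6.56), Mup2 (2.21) and Mup5 (0.103). There only Mup12 and Mup17, and Mup1 and Mup2, overlapped as neighbours, with the first gene higher in 5 of 6 libraries for each pair. Levels of the near-identical genes depend on how shared reads were counted.

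The counts of the 10 genes summed to 10843 ± 2627 CPM (SD, n = 6) after PBS and to 15017 ± 1739 CPM after GH, a ratio of 1.38. By library the sum ran from 7421 CPM in PBS replicate 5 to 14226 in PBS replicate 4, and from 11714 in GH replicate 6 to 16649 in GH replicate 2. The GH libraries lay above the PBS range except replicate 6, which was below 3 PBS libraries. As a share of all counts this was 1.11 ± 0.273% of a PBS library (SD, n = 6) and 1.47 ± 0.171% of a GH library. The 10 genes held 97.8% of the counts of all 43 Mup rows in PBS and 98.3% in GH. No test was made of this sum, which is a score over the chosen genes. Any reads dropped for matching several genes are missing from the sum.

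The makeup of the sum also differed between the groups. Mup3 was 69.7 to 81.4% of the 10-gene sum in PBS (mean 75.1 ± 5.34%, SD, n = 6) and 59.9 to 68.8% in GH (63.5 ± 3.07%), with no overlap. Mup20 was 11.6 to 22.4% in PBS (16.9 ± 4.28%) and 21.9 to 30.5% in GH (26.6 ± 2.96%), and the ranges touched only through GH replicate 6. Mup21 was 1.20 to 3.45% in PBS (2.40 ± 0.789%) and 3.75 to 5.89% in GH (4.89 ± 0.894%), with no overlap. The other 7 genes together held 5.57 ± 1.03% and 5.07 ± 0.466%. All of these are shares of counted reads. How reads matching several genes were counted is not stated, so the share of Mup RNA that comes from Mup3 or from the near-identical genes is unknown. Shares add up to the whole, and the lower share of Mup3 in GH stood beside a higher mean CPM.

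**Figure D5:**
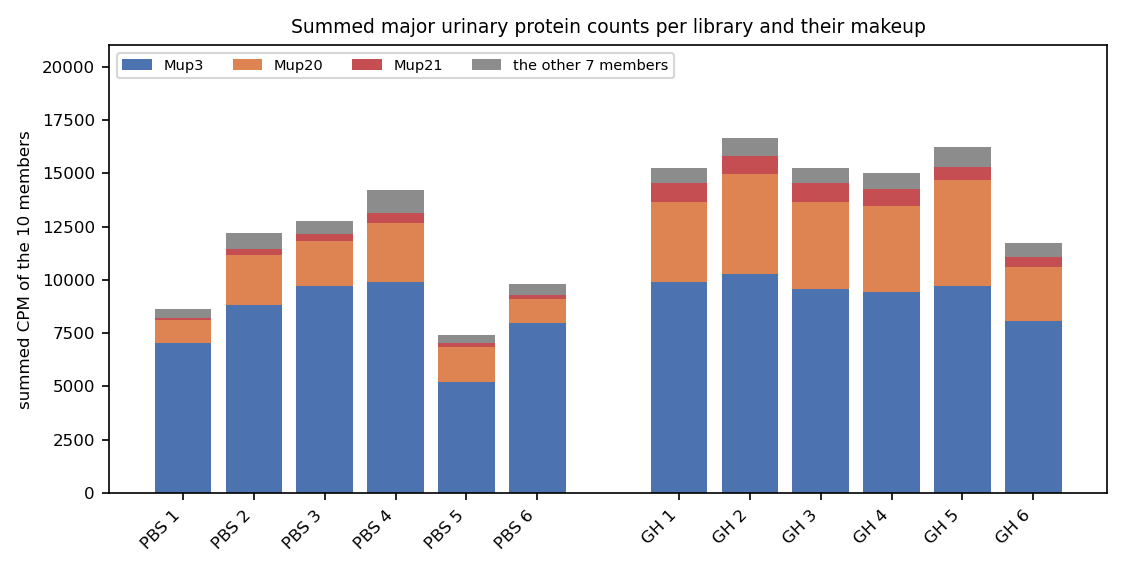
Summed counts-per-million of the 10 genes in each of the 12 libraries, stacked as Mup3, Mup20, Mup21 and the other 7. The GH bars are taller than every PBS bar except that of GH replicate 6 (11714), and the Mup20 and Mup21 layers are thicker in GH.

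Ratios between genes within a library do not depend on library scaling. The ratios of Mup20, Mup21 and Mup3 are given as a description with no test, since these genes were picked after the values above had been seen. Mup20 over Mup3 ran from 0.142 to 0.320 in PBS and from 0.318 to 0.510 in GH, and the ranges barely overlapped. The log2 ratio averaged -2.19 ± 0.48 (SD, n = 6) after PBS and -1.26 ± 0.23 after GH, differing by 0.93, or 0.80 to 1.04 when 1 library was omitted. Mup21 over Mup3 ran from 0.0147 to 0.0495 in PBS and from 0.0546 to 0.0937 in GH without overlap. Its log2 ratio averaged -5.04 ± 0.63 (SD, n = 6) after PBS and -3.72 ± 0.29 after GH, differing by 1.32, or 1.12 to 1.47 when 1 library was omitted.

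Mup21 over Mup20 ran from 0.0979 to 0.179 in PBS and from 0.129 to 0.229 in GH, with wide overlap. Its log2 difference was 0.40, with 0.30 to 0.50 when 1 library was omitted. Without both GH replicate 6 and PBS replicate 5 the log2 differences were 1.11 for Mup20 over Mup3, 1.51 for Mup21 over Mup3 and 0.40 for Mup21 over Mup20.

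The promoters of Mup21, Mup3 and Mup10 show what a called gene, its close relative and a near-identical gene share upstream. Each is the 250 bases before the annotated start, 5′ to 3′ on the minus strand, from RefSeq on GRCm38.p6, which held entries for 6 of the 10 genes (Mup2, Mup3, Mup7, Mup10, Mup17 and Mup21). They lie at chr4:62150842-62151091, chr4:62087318-62087567 and chr4:60582156-60582405, and capitals mark ATCAAT, the core of the motif of HNF6 (the product of Onecut1).
Mup21: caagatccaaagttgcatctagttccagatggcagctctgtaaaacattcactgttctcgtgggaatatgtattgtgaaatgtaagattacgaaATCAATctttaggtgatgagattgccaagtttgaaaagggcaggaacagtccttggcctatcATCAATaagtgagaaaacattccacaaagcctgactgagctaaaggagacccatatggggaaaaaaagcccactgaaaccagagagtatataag
Mup3: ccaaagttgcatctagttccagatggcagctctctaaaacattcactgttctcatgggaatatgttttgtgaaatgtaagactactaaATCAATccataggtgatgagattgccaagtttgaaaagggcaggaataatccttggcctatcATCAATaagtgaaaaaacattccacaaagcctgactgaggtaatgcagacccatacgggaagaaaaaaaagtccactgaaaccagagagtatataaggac
Mup10: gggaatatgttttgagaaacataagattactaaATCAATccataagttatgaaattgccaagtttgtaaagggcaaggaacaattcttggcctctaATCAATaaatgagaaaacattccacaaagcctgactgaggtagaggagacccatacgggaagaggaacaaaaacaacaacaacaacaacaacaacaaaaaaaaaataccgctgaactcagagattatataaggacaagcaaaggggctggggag
ATCAAT, searched on both strands, occurred 2 times in each of the 6 promoters, with the copies 62 bases apart in Mup3 and Mup21 and 63 apart in the other 4 genes. The first bases of the copies lay 156 and 94 bases before the RefSeq start in Mup21 and 162 and 100 in Mup3. In Mup10 they lay 217 and 154 bases before it. These RefSeq starts lie inside the GENCODE M21 spans of Mup21, Mup3 and Mup10, so the distances depend on the annotation used. Of all 32851 RefSeq promoters of the same length, 6.72% held the motif at least once. TTCNNNGAA, the form bound by STAT5, which reads the same on both strands, was in 0 of the 6 windows and in 7.02% of all. The motifs were chosen after the promoters had been seen, the 6 sequences are related by descent, and a match is no evidence of binding.

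Of 26 listed genes of the GH pathway and regulators of Mup transcription, 25 rows were tested, with a median log2 fold change of 0.01. Of the 25, 0 were higher, 4 were lower and 21 did not pass, against 2.27% higher and 2.52% lower of all genes. The 4 were Socs2 and Cish, feedback inhibitors that GH induces through STAT5, Igf1, the growth factor through which GH acts, and Onecut1. Socs2 fell from 13.8 ± 7.51 to 1.32 ± 0.284 CPM (log2 fold change -3.37, adjusted p = 0.00084). Onecut1 fell from 20.4 ± 12.0 to 1.67 ± 0.360 CPM (-3.60, adjusted p = 0.00167), and it shares 2171 exonic bases with Gm20649. Cish fell from 7.53 ± 7.56 to 0.610 ± 0.337 CPM (-3.63, adjusted p = 0.0201, and -2.98 without PBS replicate 4), and Igf1 from 493 ± 51.6 to 310 ± 60.6 CPM (-0.67, adjusted p = 0.00381, SD, n = 6). Not passing were Ghr, which encodes the receptor of GH, at a log2 fold change of 0.23 (adjusted p = 0.134), Stat5b, its main signal transducer in liver, at 0.01 (0.976), the liver transcription factor gene Hnf4a at -0.11 (0.624) and Zhx2, a regulator of Mup genes in mouse liver, at 0.12 (0.422). Bcl6, a repressor that competes with STAT5, had 1.36 (adjusted p = 0.151).

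Of 20 listed other lipocalin genes 10 were tested, with a median log2 fold change of 0.33. Of the 10, 2 were higher, 1 was lower and 7 did not pass, against 2.27% higher and 2.52% lower of all genes. Orm1, an acute-phase plasma carrier, rose from 570 ± 98.2 to 986 ± 69.1 CPM (SD, n = 6), a log2 fold change of 0.79 with adjusted p = 0.000333, and Orm3 fell from 4.53 ± 1.95 to 1.72 ± 0.501 CPM (-1.39, adjusted p = 0.0146). The Orm genes are close copies, and how their shared reads were assigned is unknown. Ambp, which encodes alpha-1-microglobulin and bikunin, rose by a log2 fold change of 0.26 ± 0.07 (SE, adjusted p = 0.0296). It no longer passed in 7 of 12 fits that each omitted 1 library, or under library totals alone (adjusted p = 0.0776). The retinol carrier gene Rbp4 had 0.15 (adjusted p = 0.405). Lcn2, an iron-siderophore carrier, had 2.00 (adjusted p = 0.110), which was 1.05 without GH replicate 6.

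Outside the 10 genes there were 33 further Mup rows, of which 12 were tested, 6 of them pseudogenes. Of the 12, 0 passed, against 4.79% of all genes in either direction. Their log2 fold changes ran from -1.16 to 1.49, with a lowest adjusted p of 0.0972. That lowest value belonged to Mup-ps19, the pseudogene that shares windows with Mup20, at 3.14 ± 1.55 CPM after PBS (SD, n = 6) and 5.63 ± 1.05 after GH. Mup11, the only one above a mean of 100 CPM, averaged 165 ± 106 CPM after PBS (SD, n = 6) and 138 ± 57.1 after GH, a log2 fold change of -0.26 ± 0.46 (SE, adjusted p = 0.822) that became 0.06 without PBS replicate 4.

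Among 14214 tested genes outside the family, those whose log2 CPM followed Mup20 most closely over the 12 libraries, after group means were subtracted, were C6 (r = 0.96), Xpo4 (0.93), Snord92 (0.93), F11 (0.93) and a U1 small nuclear RNA row (0.92). C6 encodes a complement component and F11 a coagulation factor, both made in liver. Their Spearman's rho was 0.91 and 0.98, and r was 0.91 and 0.89 without the 2 libraries farthest from the median of Mup20. C6 was higher in GH (275 to 621 CPM, log2 fold change 1.18, adjusted p = 0.0126) and so was F11 (93.3 to 156 CPM, 0.74, adjusted p = 2.23e-05). The U1 row was also higher (7.45 to 22.1 CPM, 1.57, adjusted p = 0.00695). Xpo4, which overlaps Gm49361 by 332 exonic bases, had -0.09 (adjusted p = 0.622), and Snord92 had -0.03 (adjusted p = 0.967). For Mup21 the closest were Ccdc127 (r = 0.97), Ctnnb1 (0.97), Golga1 (0.95), the same U1 row (0.95) and Lig3 (0.95), and r was 0.87 to 0.92 without the 2 farthest libraries. Apart from the U1 row these did not pass the test. Their log2 fold changes were -0.18 for Ccdc127 (adjusted p = 0.355), 0.07 for Ctnnb1 (0.553), -0.09 for Golga1 (0.593) and -0.17 for Lig3 (0.300). The U1 symbol stands on 210 identifiers of near-identical copies. These are descriptions over 12 libraries, and the part of handling or depth in them was not tested. The 5 highest of so many correlations are high by selection.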

How the data were processed

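Liver RNA of 6 PBS and 6 GH mice was sequenced. Per the labels' protocols, 250 ng of total RNA went into each stranded library, with 12 PCR cycles, and pools of 24 were read as pairs of 125 cycles. The authors deposited raw, not normalized, counts of reads per gene. Per the submitters' processing notes, STAR 2.4.0i and mm10 were used. Which program and annotation counted the reads, whether strand was used and what became of reads matching several genes is not given in the sources used. Reads shared by near-identical copies may have been dropped or divided, which would change levels and ratios of such genes.

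Counts were analysed with edgeR 4.0.16 in R 4.3.3: filterByExpr (minimum count 10), TMM scaling, robust quasi-likelihood F test with group as the only term, Benjamini-Hochberg adjustment over 14235 genes and a threshold of 0.05, two-sided. The biological coefficient of variation in common was 0.168. Here CPM are TMM-scaled, log2 fold changes are GH minus PBS, and SE is the absolute log2 fold change over the square root of F. P-values weigh the difference between the groups against the spread between these samples only. The labels do not say that replicate numbers pair the samples, and the main fit used no pairing. Correlations of same-numbered deviations ran from -0.175 to 0.159, which cannot exclude a pairing. DESeq2 1.42.0, other scalings, no filter, a replicate block and left-out libraries were alternatives.

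Positions, transcripts and window uniqueness came from GENCODE M21, with the transcript closest in length to that of Mup20 (928 bases) for each gene. Coding sequences were aligned with MAFFT 7.526. Uniqueness ignores the mate of a read and unannotated copies. Members and lists were chosen with earlier results of these data known. Named beyond the members were Mup rows at 100 CPM or more, genes called in the lists, preset regulators and lipocalins, and for each called member the 5 genes with the highest correlation. Of the preset regulators 1 is not reported here. Mup-ps19, Dcn and Alas2 were named after their values were seen.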

Additional observations from a re-analysis of the deposited data

Results flagged for a closer look

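Among 34 sets of 6 values checked, 2 had a library far from the others of its group, measured by the gap to the nearest library over the range of the group, and chance alone marks about 1 in 20 sets. Mup5 in PBS replicate 2 had 0.282 CPM, from 6 counts, with the next PBS library at 0.0966 CPM. The sum of the 10 Mup genes in GH replicate 6 was 11714 CPM, with the next GH library at 15030 CPM.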

How the results depend on the processing

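Over the 180 refits of the 9 tested Mup genes 155 kept direction and side of the threshold, 14 lost and 4 gained the threshold, and 7 changed sign. The genes that passed numbered 1072 by DESeq2 and 391 with a replicate block, against 682, and 434 (without GH replicate 2) to 854 (without PBS replicate 5) with 1 library left out. With the block Mup20 (adjusted p = 0.00545) and Mup21 (0.0473) still passed, Ambp (0.107) and Orm3 (0.103) did not, and 1 of 6 PBS libraries correlated best with the GH library of its number. The Mup genes that passed numbered 0 with no filter on low counts, where 27459 genes were tested and Mup20 had an adjusted p of 0.0602 and Mup21 0.0618, and 0 to 3 with 1 library left out. The 7 changes of sign were all in Mup17: -0.051 under library totals alone, -0.058 without GH replicate 6 and PBS replicate 5, and 5 when 1 library was omitted (-0.24 to 0.64 over all 12). Stat5b was -0.051 under library totals alone, -0.032 without GH replicate 6 and PBS replicate 5, and -0.059 to 0.063 with 1 library left out. Mup11 ran from -0.43 to 0.064. Causes of these changes were not tested. Under library totals alone the median of all genes moved to -0.06 and 24.3% of 869 calls were higher in GH, against 47.4% in the TMM fit. The GH minus PBS difference of the summed Mup genes, 4174 CPM, was 3490 to 4851 with 1 library left out, 4172 over all Mup rows and 3627 under library totals alone. The share of Mup20 differed by 8.60 to 10.8 percentage points, that of Mup3 by -12.7 to -10.4 and that of Mup21 by 2.25 to 2.72. Median uniqueness was 36.5% with 125-base windows and 18.2% with 50-base windows. Depth kept Mup5, with 22 counts in all, from being tested.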
